A study of Homo sapiens with 6 samples.

Results

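Cell adhesion molecules of neurons and synapses join the membrane of one cell to that of another, or to receptors on it. The leucine-rich repeat families (ELFN, LRRTM, SLITRK, LRFN, LINGO, FLRT, AMIGO and LRIG) carry repeats outside the cell that dock onto receptor phosphatases, latrophilins, UNC5 receptors, glutamate receptors or each other. Neurexins on the sending side of a synapse bind neuroligins and LRRTM proteins on the receiving side, and immunoglobulin-type molecules (L1CAM, NRCAM, NFASC, contactins, CADM and NCAM proteins) hold axons, glia and synapses together and tie them to the membrane skeleton. Melanocytes come from the neural crest, which also gives rise to peripheral neurons and Schwann cells, and several of these molecules are made in melanoma.

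The genes described here were chosen by their symbols: 14 families of neuronal and synaptic adhesion molecules, and the 5 genes L1CAM, NRCAM, NFASC, ALCAM and MCAM. They are 61 of the 23345 gene symbols of the table. The families were proposed with the comparison of BMI1 with GFP cells already known, so their values in that comparison are given as a description and not as a test. RNA was sequenced from A375 cells, a human melanoma line kept in culture and known to carry mutant BRAF. The cells had received a lentivirus for murine BMI1 (3 libraries), the RING finger subunit of Polycomb repressive complex 1, or a lentivirus for GFP (3 libraries), a fluorescent protein that serves as the control. All cells were grown in DMEM with 10% fetal bovine serum, and both groups went through lentiviral infection. The question was what BMI1 overexpression does to gene expression in a melanoma line, and a single line and a mouse protein limit it as a model.

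Libraries held 20221432 to 24557089 estimated counts in BMI1 cells and 20692385 to 30388937 in GFP cells. Levels are given as CPM, the count relative to library size after TMM scaling, with the SD over 3 libraries after each mean. The row for BMI1 stood at 518, 522 and 506 CPM in BMI1 libraries, against 81.5, 92.7 and 94.0 CPM in GFP libraries. Reads of the mouse transgene were counted on a human reference there. GFP replicate 1 lay apart from the other libraries on the second principal component, which held 12.2% of the variance, and without it all 29 calls of adhesion genes given below were kept. Of the melanocyte lineage markers, SOX10 was at 632 ± 41.7 CPM in BMI1 cells and 647 ± 77.5 in GFP cells, and MITF was at 33.6 ± 2.76 CPM in BMI1 cells and 33.7 ± 1.21 in GFP cells. None of the 5 tested markers of this list was called, and the pigment genes TYR, DCT and PMEL were under the filter on low counts. The labels do not say that replicates came from separate cultures, so every call below measures only the spread between these libraries, which may be technical. In bulk RNA, fewer cells that make a transcript and less transcript per cell cannot be told apart.

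Of the 61 adhesion genes, 46 had enough counts to be tested and 15 did not. Genes were called at an adjusted p of 0.05 in edgeR's quasi-likelihood test over all 15079 tested genes. By this rule 25 adhesion genes rose in BMI1 cells, 4 fell and 17 did not pass. Over all tested genes 26.4% were called, with 17.1% rising and 9.32% falling. Of the adhesion genes that rose, 10 did so at least 2-fold (4.93% of all tested genes), and none fell at least 2-fold (0.577%). All 3 BMI1 libraries lay above all 3 GFP libraries for 24 of the 46 and below them for 5, so the groups did not overlap for 29, while 40.1% of all tested genes had groups without overlap. Nothing is read from these shares, because the choice of the families used this comparison. The median log2 fold change, BMI1 over GFP, was 0.29 over the 46 adhesion genes and -0.01 over all tested genes. CNTN2, LINGO2, LINGO3 and NRXN2 passed the filter only through their BMI1 libraries, so 3 of the 10 large rises had to show a difference to be tested at all. The summed level of the 61 genes was 1456, 1447 and 1452 CPM in BMI1 libraries, against 1182, 1151 and 1159 CPM in GFP libraries.

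**Figure D1:**
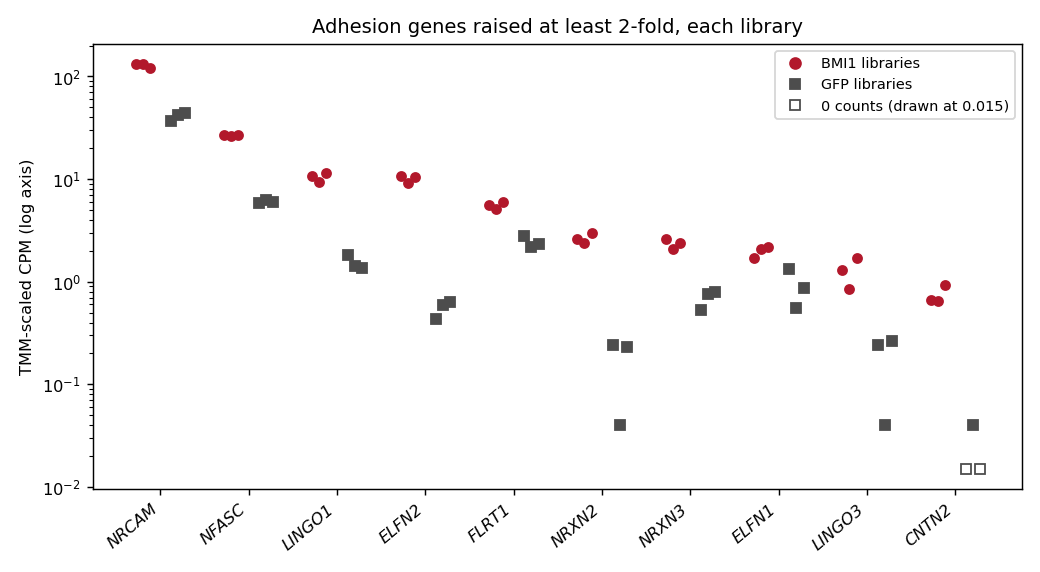
TMM-scaled CPM on a log axis for the 10 adhesion genes called with a rise of at least 2-fold, 1 point per library, BMI1 libraries as red circles and GFP libraries as grey squares. For each gene the 3 BMI1 points lie above the 3 GFP points, and the open squares for CNTN2 mark libraries with 0 counts, drawn at 0.015.

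Of these 10 genes, 5 reached at least 5 CPM in BMI1 cells: NRCAM, NFASC, LINGO1, ELFN2 and FLRT1. Their promoter windows are shown because they are the large rises that reached this level in BMI1 cells, although ELFN2 was under 1 CPM in GFP cells. AMIGO2 is shown beside them as the fall that held under every alternative setting. Each window runs from 250 bases before to 50 bases after the RefSeq start on GRCh38.p14, 5′ to 3′ on the gene's own strand, with each CG dinucleotide in capitals. The windows lie at chr22:37427430-37427729 (minus strand) for ELFN2, chr15:77820851-77821150 (minus) for LINGO1, chr11:64035681-64035980 (plus) for FLRT1, chr1:204828402-204828701 (plus) for NFASC, chr7:108456387-108456686 (minus) for NRCAM and chr12:47079902-47080201 (minus) for AMIGO2. Which start A375 cells use is not known from these files. The last bases of the window were found in a GENCODE v29 transcript of the gene for ELFN2, LINGO1, NFASC and AMIGO2. For FLRT1 and NRCAM they were not found, so these starts are less certain.
ELFN2: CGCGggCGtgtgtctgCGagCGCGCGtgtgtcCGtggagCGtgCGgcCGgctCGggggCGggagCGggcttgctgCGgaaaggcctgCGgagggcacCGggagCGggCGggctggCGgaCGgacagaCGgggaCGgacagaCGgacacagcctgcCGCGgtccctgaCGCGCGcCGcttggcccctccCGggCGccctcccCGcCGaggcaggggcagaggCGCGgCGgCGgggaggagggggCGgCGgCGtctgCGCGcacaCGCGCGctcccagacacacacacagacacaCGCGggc
LINGO1: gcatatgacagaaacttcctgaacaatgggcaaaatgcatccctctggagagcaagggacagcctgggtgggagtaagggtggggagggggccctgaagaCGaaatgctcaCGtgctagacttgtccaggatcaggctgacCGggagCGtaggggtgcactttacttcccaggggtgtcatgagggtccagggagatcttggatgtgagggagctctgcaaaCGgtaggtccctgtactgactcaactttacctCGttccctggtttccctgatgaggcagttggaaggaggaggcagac
FLRT1: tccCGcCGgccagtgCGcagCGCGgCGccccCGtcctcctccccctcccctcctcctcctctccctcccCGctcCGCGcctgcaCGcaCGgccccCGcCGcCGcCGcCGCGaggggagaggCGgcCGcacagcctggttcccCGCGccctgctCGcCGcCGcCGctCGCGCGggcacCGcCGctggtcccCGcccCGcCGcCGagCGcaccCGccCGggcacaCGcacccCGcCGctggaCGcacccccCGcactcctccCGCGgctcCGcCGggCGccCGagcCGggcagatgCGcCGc
NFASC: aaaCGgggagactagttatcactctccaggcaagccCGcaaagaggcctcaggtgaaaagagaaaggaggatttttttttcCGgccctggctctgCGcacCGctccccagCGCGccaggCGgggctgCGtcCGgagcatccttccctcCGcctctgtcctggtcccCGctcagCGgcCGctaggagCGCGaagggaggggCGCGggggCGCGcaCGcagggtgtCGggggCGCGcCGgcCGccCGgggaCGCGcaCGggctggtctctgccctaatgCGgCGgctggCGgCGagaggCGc
NRCAM: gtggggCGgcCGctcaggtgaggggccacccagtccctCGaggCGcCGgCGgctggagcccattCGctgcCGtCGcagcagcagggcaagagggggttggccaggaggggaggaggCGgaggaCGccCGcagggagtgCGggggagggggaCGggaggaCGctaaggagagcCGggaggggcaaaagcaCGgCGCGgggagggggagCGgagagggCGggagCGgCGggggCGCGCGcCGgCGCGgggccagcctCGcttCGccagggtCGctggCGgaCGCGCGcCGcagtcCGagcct
AMIGO2: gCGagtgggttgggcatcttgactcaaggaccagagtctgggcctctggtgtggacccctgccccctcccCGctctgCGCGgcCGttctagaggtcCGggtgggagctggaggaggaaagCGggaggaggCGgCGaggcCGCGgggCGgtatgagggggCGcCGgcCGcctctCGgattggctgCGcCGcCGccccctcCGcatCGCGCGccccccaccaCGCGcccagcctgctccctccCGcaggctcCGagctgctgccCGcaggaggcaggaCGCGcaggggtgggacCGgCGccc

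The window of ELFN2 holds 48 CG dinucleotides, that of FLRT1 52, NRCAM 38 and NFASC 35. LINGO1 differs from these, with 6. The window of AMIGO2, which fell, holds 32. Among all 27305 RefSeq windows of this length the median was 14 CG dinucleotides, and among windows of the 10302 tested genes with one it was 26. A window was found for 53 of the 61 adhesion genes. The median was 32 for the 23 genes that rose, 36.5 for the 8 that rose at least 2-fold, 18.5 for the 4 that fell, 20.5 for 14 that did not pass and 10 for 12 not tested. The ranges overlap widely, from 2 to 55 among rises and from 4 to 32 among falls. The letters GGGCGG, the core of the GC box, were searched on both strands. They were present in 14 of the 23 windows of rising genes and in 2 of the 4 of falling genes, against 68.8% of the windows of tested genes and 44.6% of all windows. The letters TATAAA, also searched on both strands, were found in 1 of the 53 windows, that of the untested LRRTM2, against 5.82% of the windows of tested genes and 12% of all windows. These matches describe the windows and say nothing of which factors bind there.

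ELFN1 and ELFN2 sit on the receiving side of synapses and recruit group III metabotropic glutamate receptors across the cleft. ELFN2 was at 10.7, 9.18 and 10.4 CPM in BMI1 libraries, against 0.431, 0.596 and 0.630 CPM in GFP libraries. It rested on 681 counts in BMI1 cells and 43 in GFP cells, and every BMI1 library lay above every GFP library. Its log2 fold change was 4.15 (SE 0.17). ELFN1 was at 1.70, 2.08 and 2.16 CPM in BMI1 libraries, against 1.34, 0.556 and 0.862 CPM in GFP libraries, a log2 fold change of 1.13 (SE 0.27). Both rose, and the gap between the closest BMI1 and GFP libraries was narrow for ELFN1. Of their receptors, GRM8 rose, at 10.6 ± 0.58 CPM in BMI1 cells and 6.97 ± 0.21 in GFP cells, a log2 fold change of 0.61. GRM6 and GRM7 did not pass, and GRM4 was under the filter.

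The LINGO family is named for LINGO1, a partner of the Nogo receptor that takes part in halting axon growth and myelination. LINGO1 was at 10.7, 9.37 and 11.4 CPM in BMI1 libraries, against 1.82, 1.43 and 1.36 CPM in GFP libraries. The groups lay far apart, and the log2 fold change was 2.79 (SE 0.14). LINGO3 rose by a like log2 fold change of 2.79 with a wider error (SE 0.44), at 1.29, 0.843 and 1.71 CPM in BMI1 libraries, against 0.240, 0.0397 and 0.265 CPM in GFP libraries. LINGO2 did not pass (log2 fold change 0.37, SE 0.30), and its groups overlapped. LINGO4 had 0 counts in all 6 libraries, which allows up to 3 counts, or 0.149 CPM in the shallowest library. All 3 Nogo receptor genes rose, with RTN4RL1 furthest: 5.04 ± 0.91 CPM in BMI1 cells and 0.773 ± 0.243 in GFP cells, a log2 fold change of 2.73. Of the co-receptors, TNFRSF19 fell, with a log2 fold change of -0.24. NGFR, the low-affinity neurotrophin receptor, did not pass, at 29.4 ± 2.08 CPM in BMI1 cells and 25.3 ± 3.59 in GFP cells.

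FLRT proteins repel or attract growing axons by binding UNC5 receptors and latrophilins. All 3 FLRT genes rose. FLRT1 was at 5.62, 5.16 and 6.03 CPM in BMI1 libraries, against 2.78, 2.19 and 2.35 CPM in GFP libraries, a log2 fold change of 1.21 (SE 0.14). FLRT2 was at 19.8, 25.5 and 20.9 CPM in BMI1 libraries, against 12.3, 12.2 and 12 CPM in GFP libraries (log2 fold change 0.86). FLRT3 was at 66.9, 75.1 and 70.0 CPM in BMI1 libraries, against 48.1, 51.0 and 50.2 CPM in GFP libraries (log2 fold change 0.50). The groups did not overlap for any of the 3. Among their receptors, UNC5B rose with a log2 fold change of 1.77, and UNC5A had 50 counts in BMI1 cells and 1 in GFP cells. That UNC5A ratio, scaled for depth, was 56.7, with a 95% counting interval of 9.73 to 2290. UNC5A passed the filter only through its BMI1 libraries. UNC5C did not pass, with a log2 fold change of -0.30. UNC5D was under the filter, with 5 counts in BMI1 cells and 31 in GFP cells, and each of its BMI1 libraries lay below each GFP library. LPHN1, a latrophilin, rose with a log2 fold change of 0.53, at 102 ± 5.51 CPM in BMI1 cells and 70.3 ± 3.21 in GFP cells. LPHN2, LPHN3 and the teneurins, which latrophilins also bind, did not pass or were under the filter.

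SLITRK and LRFN proteins (the LRFN family is also called SALM) act from the receiving side on receptor phosphatases of the LAR type. No SLITRK gene rose. SLITRK6, the most abundant of the family also per length, was at 60.8, 69.8 and 62.4 CPM in BMI1 libraries, against 70.9, 78.9 and 80.4 CPM in GFP libraries, and fell by 0.26 on the log2 scale. SLITRK4 was at 4.42, 4.32 and 2.57 CPM in BMI1 libraries, against 5.51, 5.80 and 5.20 CPM in GFP libraries, and fell by 0.56. For both genes every BMI1 library lay below every GFP library, but the highest BMI1 library of SLITRK6 and the lowest GFP library were close. Neither call held when BMI1 replicate 3, GFP replicate 2 or GFP replicate 3 was left out, and the SLITRK6 call was also lost without BMI1 replicate 1. Without BMI1 replicate 3 the log2 fold change of SLITRK4 was -0.33. SLITRK1, SLITRK2 and SLITRK5 did not pass, and SLITRK3, which was under the filter, was at 0.269 ± 0.0399 CPM in BMI1 cells and 0.315 ± 0.0378 in GFP cells.

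The LRFN genes showed small differences. LRFN4, the most abundant, was at 37.0, 38.6 and 42.6 CPM in BMI1 libraries, against 37.8, 30.7 and 31.7 CPM in GFP libraries. It was called as a rise (log2 fold change 0.24, SE 0.08), although GFP replicate 1 lay above the lowest BMI1 library. The call was lost on leaving out BMI1 replicate 2 or 3, or GFP replicate 2 or 3. LRFN1 also rose (log2 fold change 0.33), LRFN3 did not pass, LRFN5 was under the filter and LRFN2 had 0 counts. Of the phosphatases that these families bind, PTPRD rose with a log2 fold change of 2.08, at 4.16 ± 0.24 CPM in BMI1 cells and 0.993 ± 0.181 in GFP cells. PTPRS rose by 0.33 on the log2 scale, and PTPRF did not pass.

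AMIGO proteins bind one another along axons, and AMIGO1 also accompanies a potassium channel. This was the family in which genes were called in both directions. AMIGO2 was at 48.4, 50.7 and 50.1 CPM in BMI1 libraries, against 62.8, 63.0 and 64.4 CPM in GFP libraries. The groups were well apart, with a log2 fold change of -0.35 (SE 0.05). AMIGO1 was at 7.90, 7.39 and 7.37 CPM in BMI1 libraries, against 5.18, 4.53 and 6.36 CPM in GFP libraries, a rise of 0.49 on the log2 scale that was not called without BMI1 replicate 1 or GFP replicate 2. AMIGO3 did not pass, at 7.15 ± 0.79 CPM in BMI1 cells and 7.62 ± 0.38 in GFP cells. Its value is uncertain, because 99.65% of its exonic bases are shared with GMPPB on the same strand.

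LRIG proteins are best known for LRIG1, which restrains receptor tyrosine kinases. LRIG3, the most abundant, was at 41.8, 41.1 and 39.7 CPM in BMI1 libraries, against 45.3, 44.6 and 47.3 CPM in GFP libraries, and fell by 0.16 on the log2 scale. The groups did not overlap, but the call was lost on leaving out any 1 of the 3 BMI1 libraries or GFP replicate 2 or 3. LRIG1 and LRIG2 did not pass.

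**Figure D2:**
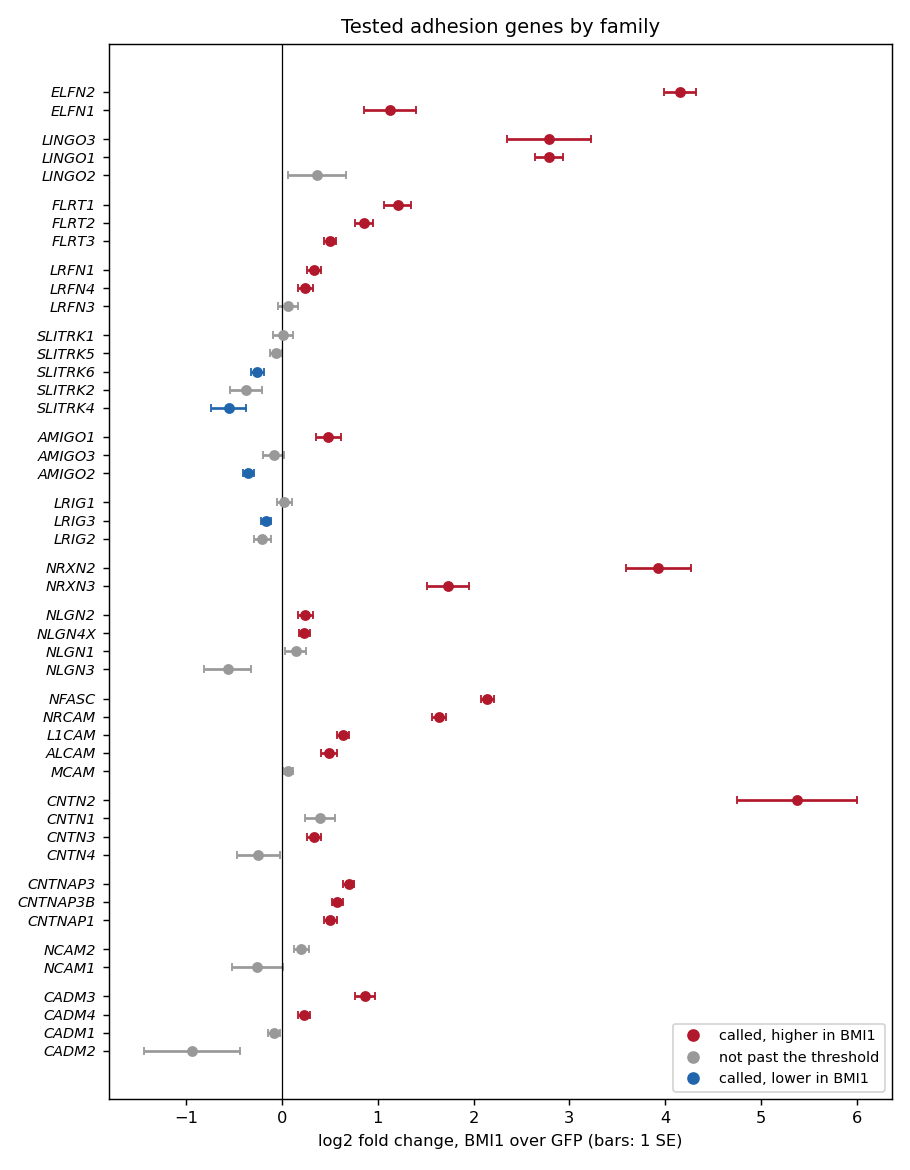
Log2 fold changes, BMI1 over GFP, of the 46 tested adhesion genes by family, with bars of 1 SE. Genes called higher in BMI1 cells are red, genes called lower are blue and genes that did not pass are grey. All tested ELFN, LINGO, FLRT, NRXN, CNTNAP, LRFN and single-symbol genes lie to the right of 0. The blue points belong to the SLITRK, AMIGO and LRIG families.

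Neurexins are the main hubs of the sending side of a synapse, where alternative splicing gives them many partners. NRXN2 was at 2.63, 2.38 and 2.97 CPM in BMI1 libraries, against 0.240, 0.0397 and 0.232 CPM in GFP libraries. It rested on 180 counts in BMI1 cells and 13 in GFP cells, with a log2 fold change of 3.93 (SE 0.34). NRXN3 was at 2.59, 2.08 and 2.36 CPM in BMI1 libraries, against 0.527, 0.755 and 0.795 CPM in GFP libraries, a log2 fold change of 1.73 (SE 0.22). Both rose without overlap of the groups.

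Neuroligins are the partners of neurexins, and 2 of the 4 tested genes were called. NLGN2, which is known from inhibitory synapses, was at 64.5, 60.9 and 71.4 CPM in BMI1 libraries, against 60.9, 52.3 and 53.3 CPM in GFP libraries. It rose by 0.24 on the log2 scale, with the lowest BMI1 library just above the highest GFP library, and was not called when BMI1 replicate 1 or 3, or GFP replicate 2 or 3, was left out. NLGN4X rose by 0.23. NLGN1 and NLGN3 did not pass, with log2 fold changes of 0.14 for NLGN1 and -0.57 for NLGN3, and NLGN4Y was under the filter. LRRTM proteins, the other neurexin partners on the receiving side, were all under the filter: LRRTM1 had 0 counts in all libraries, and the family summed to at most 0.178 CPM in a BMI1 library and 0.397 CPM in a GFP library. MDGA1 and MDGA2, which block neuroligins from neurexins, both rose, MDGA1 with a log2 fold change of 1.61 and 3.20 ± 0.59 CPM in BMI1 cells against 1.04 ± 0.08 in GFP cells. CA11, a carbonic anhydrase relative whose family binds neurexins, rose by 0.60 and GPC4, a glypican, by 0.57 on the log2 scale, and CLSTN1, CLSTN3 and DAG1 did not pass.

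NFASC, NRCAM and L1CAM belong to the L1 family, which binds ankyrins at nodes of Ranvier and at the start of axons. NFASC was at 26.9, 26.4 and 26.8 CPM in BMI1 libraries, against 5.89, 6.20 and 6.03 CPM in GFP libraries. The libraries of each group lay within a narrow band, and the log2 fold change was 2.14 (SE 0.07). NRCAM was at 131, 132 and 120 CPM in BMI1 libraries, against 37.1, 42.0 and 43.8 CPM in GFP libraries, a log2 fold change of 1.64 (SE 0.07). The GFP libraries of NRCAM spread more widely than those of NFASC, and both genes had groups far apart. L1CAM was at 45.9, 43.7 and 47.4 CPM in BMI1 libraries, against 31.5, 27.7 and 29 CPM in GFP libraries, and rose by 0.64 on the log2 scale. Among the ankyrins, ANK1 rose with a log2 fold change of 1.59 and ANK3 with 0.18, and ANK2 did not pass.

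ALCAM and MCAM are immunoglobulin-type molecules long studied in melanoma. ALCAM was at 35.0, 37.0 and 30.6 CPM in BMI1 libraries, against 21.1, 25.2 and 26.1 CPM in GFP libraries, and rose by 0.49 on the log2 scale without overlap. MCAM did not pass, at 221, 211 and 219 CPM in BMI1 libraries, against 219, 200 and 203 CPM in GFP libraries, with a log2 fold change of 0.06 (SE 0.05). Its groups overlapped.

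Contactins are anchored by a lipid and pair with CNTNAP proteins where axons meet myelinating glia. CNTN2 had 51 counts in BMI1 cells and 1 in GFP cells, or 0.669, 0.645 and 0.936 CPM in BMI1 libraries, against 0, 0.0397 and 0 CPM in GFP libraries. The ratio scaled for depth was 57.9, with a 95% counting interval of 9.93 to 2330. Such a ratio is set by a single count: the fitted log2 fold change was 5.38 with all libraries and 7.17 without GFP replicate 2, which held that count. CNTN3, the most abundant contactin, rose by 0.33 on the log2 scale, at 27.0, 28.8 and 27.0 CPM in BMI1 libraries, against 20.4, 24.1 and 21.1 CPM in GFP libraries. The groups did not overlap. CNTN1 and CNTN4 did not pass, and CNTN5 and CNTN6 were under the filter.

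CNTNAP1, the partner of CNTN1 at paranodes, was at 68.1, 63.2 and 69.9 CPM in BMI1 libraries, against 50.1, 47.8 and 44.1 CPM in GFP libraries, and rose by 0.51 on the log2 scale. CNTNAP3 and CNTNAP3B rose by 0.70 and 0.58. These are near-identical copies, so how reads divide between them is uncertain. CNTNAP2 and CNTNAP4 were under the filter, and CNTNAP5 had 0 counts in every library.

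CADM proteins bind one another, and CADM3 on axons pairs with CADM4 on Schwann cells. CADM4 was at 153, 134 and 152 CPM in BMI1 libraries, against 135, 122 and 118 CPM in GFP libraries. It was called as a rise of 0.23 on the log2 scale, although its groups overlapped, and was not called when BMI1 replicate 1 or 3, or GFP replicate 2 or 3, was left out. CADM3 rose further, by 0.87. CADM1 did not pass, and neither did CADM2, which had the lowest CPM of the tested adhesion genes: 0.178, 0.0496 and 0.448 CPM in BMI1 libraries, against 0.335, 0.517 and 0.497 CPM in GFP libraries. Its log2 fold change of -0.93 (SE 0.50) was -1.92, and was called, without BMI1 replicate 3. NCAM1 and NCAM2 did not pass. NCAM2, the more abundant of the pair, was at 26.1, 28.6 and 24.6 CPM in BMI1 libraries, against 21.0, 22.8 and 24.6 CPM in GFP libraries.

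**Figure D3:**
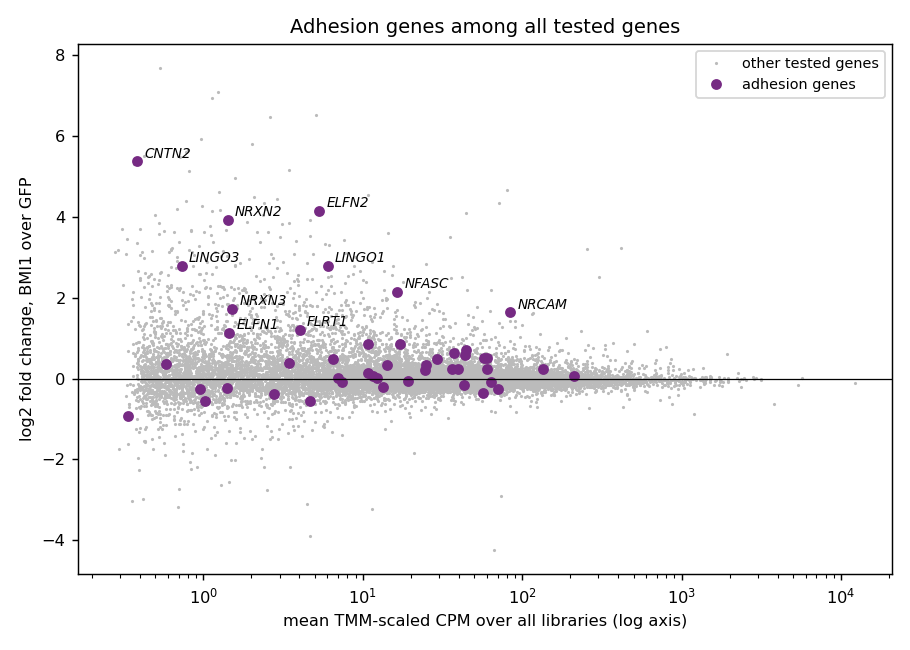
Mean TMM-scaled CPM over all 6 libraries on a log axis against log2 fold change, BMI1 over GFP, for all tested genes in grey and the 46 tested adhesion genes in purple. The 10 labelled genes are those called with a rise of at least 2-fold, of which 6 averaged under 1 CPM in GFP cells.

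Levels of different genes were compared per length, as CPM per kb of the median GENCODE basic transcript. CADM4, at 67.3 ± 4.84 CPM per kb in BMI1 cells and 57.3 ± 3.99 in GFP cells, and MCAM, at 65.5 ± 1.56 CPM per kb in BMI1 cells and 62.7 ± 3.08 in GFP cells, stood well above the rest. In each group these genes did not differ from each other beyond their summed SDs. NRCAM was 3rd of the 61 in BMI1 cells, at 22.1 ± 1.12 CPM per kb, and 12th in GFP cells, at 7.08 ± 0.60. LRFN4, at 19.8 ± 1.46 CPM per kb in BMI1 cells, lay next below NRCAM there, within their summed SDs. AMIGO2 was 6th in BMI1 cells at 16.3 ± 0.40 CPM per kb and 3rd in GFP cells at 20.7 ± 0.30. Other genes with large rises stood lower per length: LINGO1 was 22nd in BMI1 cells and 34th in GFP cells, NFASC 23rd in BMI1 cells and 31st in GFP cells, and ELFN2 30th in BMI1 cells and 46th in GFP cells. These ranks depend on the transcript model, and 8 of the 10 highest genes were shared when the longest transcript was used.

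**Figure D4:**
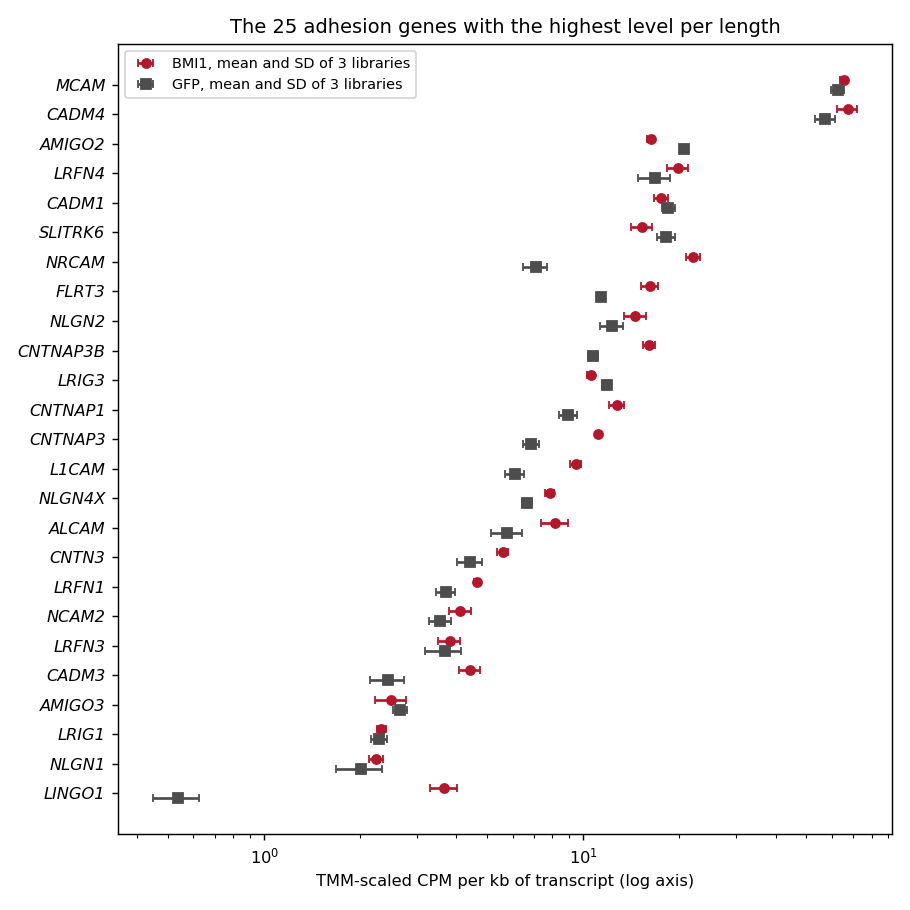
TMM-scaled CPM per kb of transcript on a log axis, mean and SD of 3 libraries, for the 25 adhesion genes with the highest level, BMI1 as red circles and GFP as grey squares. MCAM and CADM4 lead in both groups, and NRCAM and LINGO1 show the widest distance between groups among the genes drawn.

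Base composition moved with the calls. The median GC content of transcripts was 57.8% for the 25 adhesion genes that rose, 60.8% for the 10 that rose at least 2-fold, 43.0% for the 4 that fell and 44.3% for the 17 that did not pass, beside 49.7% over all tested genes with a value. Across the 46 tested adhesion genes, GC content and log2 fold change had a Pearson r of 0.45 and a Spearman rho of 0.42. Over all tested genes with a GC value r was 0.27 and rho 0.37, and over the 32 adhesion genes above 5 CPM rho was 0.26. These describe genes of the same 6 libraries, which are not independent replicates. NRCAM, with a GC content of 42.1%, rose within the low GC range, while LRFN3 and AMIGO3 had a GC content of 65.1% and 63.7% and did not pass. When each library was corrected for GC content, 28 of the 29 calls were kept, that of LRFN4 was lost, and CNTN1, NCAM2 and NLGN1 were called as well. The large rises moved little, as with ELFN2, whose log2 fold change was 4.04 with the correction and 4.15 without it. Several small ones shrank by over 1.5 times: with the correction the log2 fold change was 0.12 for NLGN2, 0.18 for LRFN1, 0.15 for CADM4, 0.08 for LRFN4 and -0.15 for SLITRK6.

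**Figure D5:**
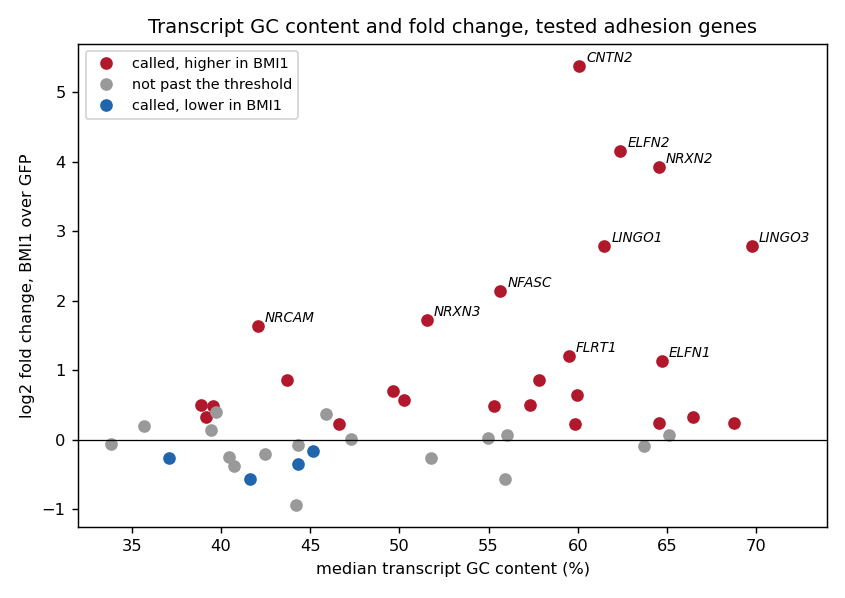
Median GC content of transcripts in percent against log2 fold change, BMI1 over GFP, for the 46 tested adhesion genes, coloured by call. The large rises lie mostly at the GC-rich side, with NRCAM at 42.1% as the exception among them, and the 4 falls lie between 37.1% and 45.2%.

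Partners and anchors of these molecules were taken from lists of 81 genes set out by role, of which 63 were tested. Of these, 32 rose, 1 fell (TNFRSF19) and 30 did not pass, with a median log2 fold change of 0.33 over the 63. Over all tested genes 17.1% rose and 9.32% fell, with a median of -0.01. The lists were written with earlier results of these data known and stand as a description. Of the partners that rose, NPTX1, SHANK1, APBA1 and UNC5A were under the filter's 0.427 CPM in every GFP library. They passed only through their BMI1 libraries, so they had to show a difference to be tested at all. Secreted synaptic organisers had 6 rises among 8 tested genes: the neuronal pentraxin genes NPTX1, NPTX2 and NPTXR, the complement-like C1QL1 and C1QL4, and the neurexophilin NXPH4. NPTX1 had the largest log2 fold change of these, 3.78, at 2.05 ± 0.08 CPM in BMI1 cells and 0.152 ± 0.0745 in GFP cells. NPTX2 was at 27.0, 26.2 and 26.8 CPM in BMI1 libraries, against 2.30, 1.55 and 2.65 CPM in GFP libraries. Among synaptic scaffold proteins, which hold these molecules at the membrane, 9 of 18 tested genes rose. SHANK1 rose furthest, with a log2 fold change of 3.38, at 2.10 ± 0.20 CPM in BMI1 cells and 0.201 ± 0.0733 in GFP cells. DLG1, DLG4 and CASK, the best known anchors of neuroligins and neurexins, did not pass.

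Markers of other cell types were read beside these values. Of 12 neuron markers 9 were tested: TUBB3 and GAP43 rose, NEFL fell, and 6 did not pass. GAP43, like the fibroblast marker COL1A2 below, passed the filter only through its BMI1 libraries. Of those that did not pass, SNAP25, SYT1, STMN2, SYP, SYN1 and NEFM were at 7.81, 7.45, 2.75, 2.84, 1.24 and 0.731 CPM in BMI1 cells. In GFP cells these 6 were at 7.29, 7.84, 2.21, 3.42, 0.769 and 0.978 CPM. RBFOX3, ELAVL3 and ELAVL4 were at 0.327, 0.0602 and 0.0466 CPM in BMI1 cells and 0.118, 0.0584 and 0.0221 CPM in GFP cells, all under the filter. RBFOX3 had 22 counts in BMI1 cells and 9 in GFP cells, with every BMI1 library above every GFP library. The summed neuron list was at 287 to 312 CPM in BMI1 libraries and 255 to 287 CPM in GFP libraries, of which TUBB3 gave 258 ± 11.6 CPM in BMI1 cells and 223 ± 17.2 in GFP cells. Of 8 Schwann cell and glia markers, 5 were tested and none rose, and the list summed to 264 to 265 CPM in BMI1 libraries and 250 to 259 CPM in GFP libraries. PMP22, the marker with the highest CPM, was at 121 ± 1.2 CPM in BMI1 cells and 121 ± 3.04 in GFP cells. Of 7 fibroblast markers, 4 of 6 tested genes rose (COL1A1, COL1A2, LUM and PDGFRA), and the list summed to 52.1 to 56.9 CPM in BMI1 libraries and 32 to 36.5 CPM in GFP libraries, while COL3A1 was at 0.0866 CPM in BMI1 cells and 0.112 in GFP cells. PDGFRB, which had the highest CPM of that list over all libraries, did not pass, at 20.8 ± 2.35 CPM in BMI1 cells and 18.0 ± 1.5 in GFP cells. The part of these markers in the rise of adhesion genes was not tested. Keratinocyte markers summed to 67.4 to 69.7 CPM in BMI1 libraries and 56.5 to 69.2 CPM in GFP libraries with 1 of 2 tested genes rising, and KRT10 made up most of them. Leukocyte and endothelial markers summed to 41.9 to 46.9 CPM in BMI1 libraries and 33.0 to 41.7 CPM in GFP libraries with 2 of 3 tested genes rising, and CD68 made up most of them. The keratinocyte marker that rose was KRT14, at 4.94 ± 0.35 CPM in BMI1 cells and 3.38 ± 0.50 in GFP cells. VWF rose, at 2.08 ± 0.31 CPM in BMI1 cells and 1.16 ± 0.13 in GFP cells. CD68 also rose, although its groups overlapped, at 41.2 ± 2.11 CPM in BMI1 cells and 34.9 ± 4.39 in GFP cells. PECAM1 did not pass, at 1.21 ± 0.20 CPM in BMI1 cells and 1.22 ± 0.11 in GFP cells. KRT5, KRT1, TP63, DSG3, PTPRC, CD3E and CDH5 were at or near 0 in both groups and under the filter.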

How the data were processed

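Total RNA of A375 cells was sequenced with a standard Illumina library protocol, per the labels' protocols; neither strand nor read length nor annotation is given there. The authors deposited RSEM's estimated counts for each gene symbol, without normalization. Per the submitters' processing notes, RSEM 1.2.12, Bowtie 1.0.1 and hg19 were used. Groups come from the labels' titles, and the 6 columns were matched to them. Estimated counts were rounded, filtered with filterByExpr (minimum count 10, here 0.427 CPM), scaled by TMM and tested with edgeR 4.0.16 in R 4.3.3, with Benjamini-Hochberg adjustment over all tested genes, and the SE is the size of the log2 fold change over the root of its F statistic. The tests were also tested on simulated data.

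The members and lists were chosen with earlier results of these data known. Named were BMI1, genes called with at least 2-fold change, the most abundant gene of each family, single-symbol members, called falls, the 2 tested genes of lowest and 2 untested genes of highest level, families called in both directions, the called partner with the largest change per list, NGFR, MITF, SOX10 and the top marker per list; others that the text names were chosen after their values were seen, and a few items are not reported here. Lengths, GC content and overlaps came from GENCODE v29, matched by symbol, with 94.9% of tested genes having a GC value. Replicate numbers do not mark shared cultures in the labels. Alternatives were DESeq2 size factors, upper-quartile scaling, DESeq2 1.42.0, limma-voom (limma 3.58.1), no filter, a minimum of 1 CPM in 3 libraries, each library left out in turn, a replicate block, GC correction and longest transcripts. Where no count was seen, up to 3 counts are allowed for. This and the counting intervals cover counting error only.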

Additional observations from a re-analysis of the deposited data

How the results depend on the processing

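Over 14 alternatives, 21 of the 25 rises and 1 of the 4 falls (AMIGO2) were called in each alternative that tested them, as were all 10 rises of at least 2-fold, of which ELFN1 was under 2-fold (log2 fold change 0.88) without GFP replicate 2; CNTN2 and LINGO3 were not tested at 1 CPM in 3 libraries. No called adhesion gene changed sign. Leaving out 1 library gave 21 to 26 rises and 1 to 5 falls among the adhesion genes. Calls of AMIGO1, CADM4, LRFN4, NLGN2, LRIG3, SLITRK4 and SLITRK6 depended on it, with 1 fall left without GFP replicate 2 or 3, 2 without BMI1 replicate 1 or 3, and 5 without GFP replicate 1. Falls over all genes, 1405 in all libraries, were 711 to 2451 on leaving out a library (727 and 711 without BMI1 replicates 1 and 3, 2451, 769 and 885 without GFP replicates 1, 2 and 3) and 2558 under GC correction; the cause was not tested. Partner falls, 1 in all libraries, were 3 with DESeq2 size factors or no filter, 2 with upper-quartile scaling, the DESeq2 Wald test or the replicate block, 4 under GC correction and 1 to 3 on leaving out a library. AMIGO3, not called, had log2 fold changes of -0.13 to 7e-04 on leaving out a library, above 0 without BMI1 replicate 1. Same-numbered libraries deviated together little (correlations 0.0681, 0.0944 and -0.0648), so the numbers were not taken as pairs; under the replicate block 28 of 29 calls were kept, LRIG3 was lost, and 25 adhesion genes rose and 3 fell. LRIG3 was also lost with upper-quartile scaling and the DESeq2 Wald test, and LRFN4 with DESeq2 size factors. Some calls were gained by adhesion genes already tested above, besides those under GC correction. They were LRIG2 without GFP replicate 1, CNTN1 and CADM2 without BMI1 replicate 3, and NCAM2 without GFP replicate 3 or with upper-quartile scaling. Depth limits genes that did not reach 0.427 CPM in at least 3 libraries, where differences were not tested.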
